A study of Drosophila melanogaster with 8 samples.

Results

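Cytosolic ribosomal protein genes encode the proteins of the ribosome that translates nuclear messages, and several of them exist in flies as paralogs, that is, as duplicated copies such as an a and a b gene or a gene with a -like partner. They were followed here in ovary RNA of Drosophila. The genes were taken by name, as every gene whose current symbol starts with RpL or RpS and a digit, measured by a probe set (a group of probes read as one value) that names no other gene. This gave 37 genes of 11982 with a probe set of their own, 21 of the large subunit (RpL) and 16 of the small subunit (RpS). The reference annotation holds 88 genes with such symbols, of which 51 were not analysed here, among them RpS5a, RpL22, RpS10b, RpS19a and RpL34b. Of the 37, 33 had 1 probe set and 4 (RpL3, RpS7, RpS29 and RpS30) had several, and the brightest stood for the gene. A further 2 probe sets, for RpL7-like with CG34164 and for RpL28 with a small nucleolar RNA, name more than 1 gene and were left out.

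The study asked whether loss of Otefin (Ote), a LEM-domain protein of the nuclear lamina, changes the RNA that an ovary makes when the checkpoint kinase Chk2, which stops the mutant germline, is reduced to 1 working gene copy. Each of 8 samples of 100 ovary pairs was hybridized to 1 Affymetrix Drosophila 2.0 array, and 4 arrays were labelled null and 4 het. Null females carried a mutant ote on both second chromosomes (otefinPk over otefinG). Het siblings carried otefinPk over CyO, a balancer chromosome on which ote is wild type. In both labels the otefinPk chromosome also held a chk2 mutation, Chk2P6 in replicates 3 and 4 and Chk2P30 in replicates 1 and 2, so every sample had 1 mutant copy of chk2 and at least 1 of ote, and none was wild type. Each of these 4 genotypes had 2 samples. The labels describe virgin females 4 to 6 h after eclosion, whereas the methods give an age of 1 day. The methods also place the other ote allele on the P30 chromosome. Ovaries of such females hold germ cells, follicle cells and muscle, and in whole-tissue RNA fewer cells of a type and less RNA per cell cannot be told apart.

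Values are log2 signals after RMA, the authors' normalization, so a difference of 1 is a fold of 2. No source states the log base, which follows from values of 2.37 to 14.45 over the 18769 probe sets tested. Arrays correlated with each other at 0.957 to 0.990. Ote itself read 7.58, 7.48, 8.56 and 8.66 in null 1 to 4, against 9.26, 7.27, 9.66 and 9.29 in het 1 to 4. Het 2 was thus the array lowest in Ote, against its label. Null minus het differences without that array, and without it and null 4, are given for RpL3, RpS5b, RpS7, RpL22-like, RpS19b, RpS28a, RpS28-like and RpL37-2. The germline markers were present in both labels but lower in null for 7 of 7 genes (median -0.14, 0 of 7 with an unadjusted p under 0.05), with list means of 10.49 to 10.94 in null and 10.70 to 11.05 in het, and osk at 13.29 to 13.51 in null and 13.51 to 13.56 in het. The midgut markers were higher in null for 7 of 7 genes, with list means of 7.19 to 10.03 in null and 6.09 to 7.98 in het, and the salivary gland markers were high only in null 1 (9.14) and het 1 (9.85), against 4.28 to 5.55 elsewhere.

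A ribosome needs 1 copy of nearly every one of its proteins, and the genes are among the most strongly transcribed of a growing cell. In flies, loss of 1 copy of many of them gives the Minute phenotype of slow growth and thin bristles. In the ovary the nurse cells make ribosomes for the oocyte, which the early embryo then uses. Paralogs are often enriched in the germline: RpS5b is used mainly by female germ cells and is needed for oogenesis, RpS19b is high in early germ cells of the ovary, and RpL22-like is best known from the testis.

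The 37 genes fell into a bright and a dim class with nothing between them. In the bright class, 30 genes had mean signals over the 8 arrays of 12.85 (RpL34a) to 14.37 (RpL15). In the dim class, 7 genes had means of 3.50 (RpL10Aa) to 8.84 (RpS19b), and all 7 are paralogs of another ribosomal protein gene. The line at a log2 signal of 12 that separates them was drawn after the values were seen. The median of the 37 means was 13.84, beside 5.68 over all probe sets. Of all probe sets, 3.91% had a mean of 12 or more. The 37 genes, each by its 1 chosen probe set, made up 5 of the 20, 13 of the 50 and 24 of the 100 brightest. Other ribosomal protein probe sets were not counted, such as that of RpLP2 (mean 14.21), which the naming rule does not match. The counts are therefore minimums for ribosomal proteins. Signals of different probe sets depend on their probes, so a rank is one of brightness and not of RNA amount.

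**Figure D1:**
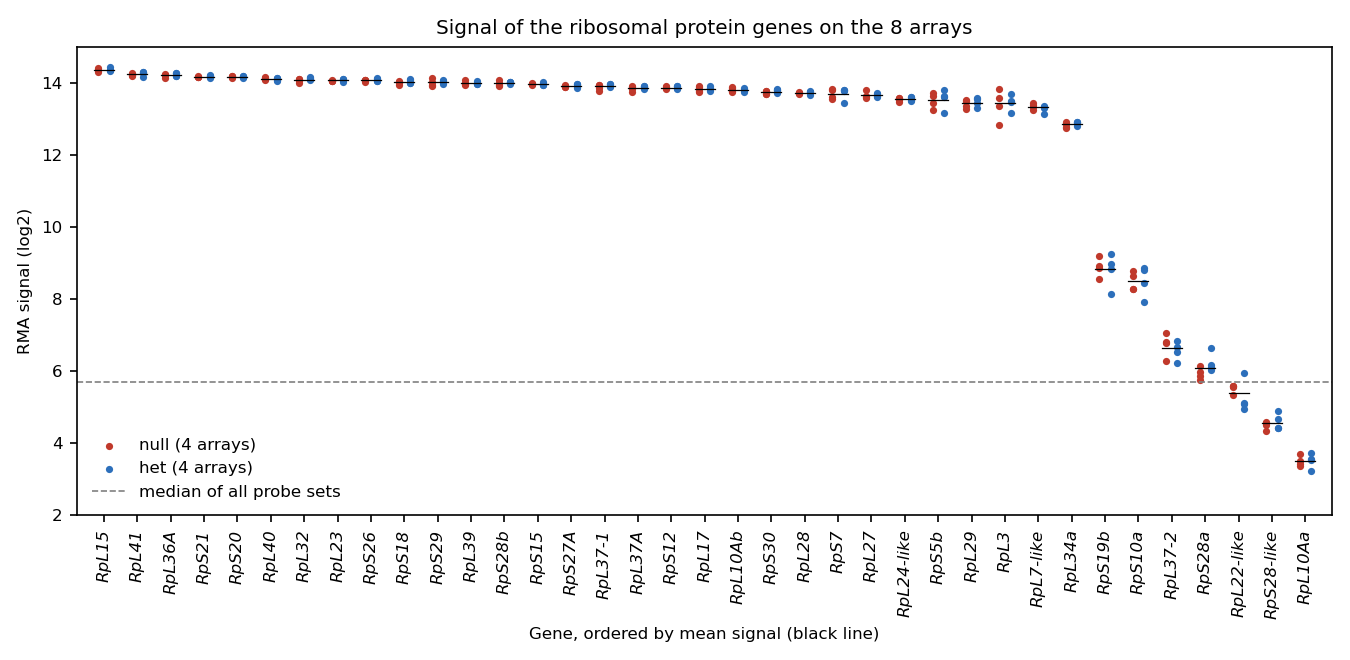
Log2 RMA signal (y axis) of each of the 37 ribosomal protein genes (x axis, ordered by mean) on the 4 null arrays (red, left) and 4 het arrays (blue, right), with the mean of 8 as a black line and the median of all probe sets (5.68) dashed. The means of the 30 bright genes lie at 12.85 to 14.37 with little spread, and those of the 7 dim paralogs at 3.50 to 8.84 with more.

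RpL15, a large subunit protein, had the brightest of the 18769 probe sets tested, which leave out the controls. It read 14.36, 14.41, 14.29 and 14.36 in null and 14.45, 14.37, 14.32 and 14.37 in het. RpL41, the smallest protein of the ribosome, averaged 14.25 (rank 7) and RpL36A, a large subunit protein, 14.22 (rank 9). They were followed by RpS21 (14.18), RpS20 (14.17) and RpL40 (14.12), the last of which is made as a fusion with ubiquitin. The highest of these values stood close to the top of the scale of the array, where the control probe sets reached 15.09. Whether such probe sets were saturated was not tested, since RMA values do not show it.

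The signals of the bright genes had a small spread over the arrays. Saturation was untested, and quantile normalization gives every array the same set of probe values before they are summarized to probe sets. A small SD at the top of the scale therefore does not show that the RNA was steady. The SD over the 8 arrays had a median of 0.051 for the 30 bright genes. It was 0.184 for the other 704 probe sets with a mean of 12 or more and 0.248 for all probe sets. The 704 include some ribosomal protein probe sets, such as that of RpLP2 and a second one of RpS29. In 26 of the 30 the SD was 0.1 or less. The smallest belonged to RpS20 (0.026), RpS15 (0.027), RpS21 (0.028), RpL23 (0.029) and RpS26 (0.034), all but RpL23 of the small subunit. RpS20, a protein of the head of the small subunit, read 14.19, 14.18, 14.13 and 14.16 in null and 14.20, 14.20, 14.16 and 14.15 in het. RpL32, in wide use as a reference gene for fly expression under the name rp49, had an SD of 0.048, with 14.11, 14.10, 14.05 and 14.00 in null and 14.16, 14.13, 14.11 and 14.09 in het.

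Of the bright genes, 4 had an SD above 0.1, and 3 of these shared a pattern over arrays. RpL3, a core protein next to the catalytic centre, read 13.58, 13.37, 13.84 and 12.84 in null and 13.48, 13.15, 13.68 and 13.51 in het (SD 0.315). RpS5b, the germline paralog of RpS5a, read 13.63, 13.44, 13.73 and 13.25 in null and 13.62, 13.17, 13.80 and 13.63 in het (SD 0.226). RpS7, a small subunit protein, read 13.80, 13.61, 13.83 and 13.56 in null and 13.77, 13.45, 13.81 and 13.79 in het (SD 0.143). In all 3 genes null 4 and het 2 were the lowest arrays and null 2 the next. Null and het overlapped. The null minus het difference of RpL3 was -0.05 with all arrays, -0.16 without het 2 and 0.03 without het 2 and null 4. Those of RpS5b were -0.04, -0.17 and -0.08, and those of RpS7 -0.002, -0.09 and -0.04.

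Null 4 and het 2 were the 2 lowest arrays for 6 of the 37 genes, RpL3, RpS5b, RpS7, RpL10Ab, RpL17 and RpS12, which is 16.2% of them. The same held for 7.09% of all probe sets and 13.5% of the other probe sets with a mean of 12 or more. They were the 2 highest for RpL40 and RpS15, or 5.41%, beside 11.7% of all probe sets and 18.0% of the other bright ones. RpLP0 of the ribosomal stalk and Rack1, a scaffold protein on the small subunit, are ribosomal proteins outside the naming rule, and they had the same 2 arrays at the bottom. RpLP0 read 12.65 in null 4 and 12.96 in het 2, beside 13.15 to 13.65 elsewhere, and Rack1 read 12.96 and 13.32, beside 13.59 to 14.00. RpLP1, RpLP2 and RpLP0-like, the others measured outside the rule, did not share this pattern. The lowest array was null 2 for RpLP1 (14.01) and het 3 for RpLP0-like (12.32). RpLP2 was lowest in het 2 (14.16) and next in het 4 (14.19).

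The further probe sets of these genes show how far a result rests on the probe set chosen. RpL3 had 2 more, with means of 10.45 and 7.47, and null 4 was the lowest array on both, at 9.54 and 7.04. RpS7 had a second one with a mean of 5.54, on which het 2 was the highest array at 6.05, the reverse of its brightest probe set. RpS29 had a second bright one (13.98) and a dim one (7.97), and RpS30 a second one at 10.68.

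The dim class consisted of RpS19b, RpS10a, RpL37-2, RpS28a, RpL22-like, RpS28-like and RpL10Aa, with a median SD of 0.289. RpS19b read 8.86, 9.19, 8.55 and 8.92 in null and 8.96, 9.26, 8.13 and 8.82 in het. RpS10a, the paralog of RpS10b, read 8.28, 8.64, 8.28 and 8.76 in null and 8.86, 8.45, 8.79 and 7.90 in het. Both lay above the median of all probe sets, and in both the 4 null arrays fell inside the range of the het arrays.

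RpL37-2 (mean 6.64), RpS28a (6.08), RpL22-like (5.40) and RpS28-like (4.54) lay around the median of all probe sets (5.68). RpL10Aa was lower still, with 3.50, 3.68, 3.42 and 3.37 in null and 3.55, 3.71, 3.53 and 3.23 in het, in the lowest 7.42% of all probe sets. Of the 7 testis markers, aly, can and dj lay in the same low range, at 3.31 to 3.99 in null and 3.47 to 4.13 in het, while Mst87F, Mst84Db, bol and twe were higher, at 4.04 to 9.98 in null and 4.03 to 9.83 in het. The files give no detection call, so whether a signal of this size stands above background was not tested.

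The paralogs could be set against each other within an array in 5 pairs. RpL10Aa minus RpL10Ab was -10.33 ± 0.16 in null and -10.30 ± 0.24 in het (log2, SD, n = 4 each). The 2 genes are paralogs named for a protein of the L1 stalk, and how alike their proteins are was not compared. RpL10Ab read 13.87, 13.79, 13.90 and 13.74 in null and 13.80, 13.76, 13.81 and 13.85 in het. The gap between the 2 genes differed by -0.03 between null and het (exact two-sided permutation test p = 0.886). As the RpL10Aa signal was not shown to stand above background and the genes have different probes, this gap is no ratio of RNA amounts. The p-values of the pairs are unadjusted, and 0.0286 is the smallest that 4 arrays against 4 allow.

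RpS28 was measured by 3 genes. RpS28b, on the X chromosome, was bright at 14.00, 14.07, 13.93 and 13.93 in null and 14.04, 14.03, 14.02 and 13.97 in het. RpS28a read 5.75, 6.13, 5.85 and 5.96 in null and 6.16, 6.63, 6.10 and 6.02 in het, and RpS28-like read 4.50, 4.55, 4.57 and 4.32 in null and 4.41, 4.89, 4.42 and 4.66 in het. RpS28a minus RpS28b was -8.06 ± 0.14 in null and -7.79 ± 0.26 in het (SD, n = 4 each), a difference of -0.27 between the labels (exact permutation p = 0.0571), with 1 null array (null 2, -7.94) inside the het range, and of -0.14 without het 2. RpS28-like minus RpS28b differed by -0.08 (exact p = 0.6), and by 0.01 without het 2. RpS28a minus RpS28-like differed by -0.19 (exact p = 0.171). The last pair, RpL37-2 below RpL37-1, was added after the names were seen. It stood at -7.15 ± 0.31 in null and -7.38 ± 0.25 in het (SD, n = 4 each, exact permutation p = 0.257).

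The RpL24-like and RpL7-like genes carry ribosomal protein names but are the fly counterparts of yeast Rlp24 and Rlp7, assembly factors of the large subunit. Both fell in the lower part of the bright class, at ranks 102 and 142 of all probe sets. RpL24-like read 13.53, 13.48, 13.58 and 13.59 in null and 13.62, 13.61, 13.53 and 13.51 in het. RpL7-like read 13.38, 13.33, 13.25 and 13.43 in null and 13.36, 13.32, 13.15 and 13.33 in het. Its difference of 0.06 between the labels was the highest of the bright class. RpL34a, at the lower edge of the class, read 12.91, 12.79, 12.85 and 12.76 in null and 12.90, 12.92, 12.89 and 12.79 in het.

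No ribosomal protein gene was called between null and het ovaries by any of the rules used. With limma, fitted on all probe sets, 0 of 37 passed the thresholds of the study (at least a 2-fold difference, with p under 0.05 before adjustment), which 0.149% of all probe sets did. At an adjusted p under 0.05 there were 0 of 37, as over all probe sets (0%), and at an unadjusted p under 0.05 0 of 37, beside 2.25%. The unmoderated test, in which each probe set keeps its own variance, gave 0 of 37 as well, beside 3.12%. In 0 of 37 were the 4 null arrays apart from the 4 het arrays, beside 1.82% of all probe sets. The lowest unadjusted p of the 37 was 0.0879 (RpS28a), and all adjusted p-values were 1.

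The differences were small. Of the 37 genes, 31 were lower in null and 6 higher as deposited (19 lower after median centring, 24 after cyclic loess), 83.8% beside 51.8% of all probe sets, with a median of -0.022 beside -0.007. In the bright class 27 of 30 were lower, with a median of -0.022, but 17 with a median of -0.0025 after median centring and 20 with a median of -0.010 after cyclic loess. The other probe sets with a mean of 12 or more were lower in 59.8%, with a median of -0.015. The genes share the same 8 arrays, so their common sign is not evidence from 31 separate genes.

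Within the bright class the differences ran from -0.07 (RpS30) to 0.06 (RpL7-like). RpS30, made as a fusion with a ubiquitin-like protein, read 13.77, 13.78, 13.69 and 13.69 in null, against 13.84, 13.81, 13.81 and 13.73 in het. RpL37-1 followed at -0.06, RpL32 and RpL3 at -0.05 each, and only RpL7-like, RpL10Ab (0.02) and RpL40 (0.02) were above 0. The 95% intervals of the bright genes reached at most from -0.57 to 0.46, both for RpL3, and for RpL15 from -0.21 to 0.16. These intervals use a variance shared over all probe sets. The median standard error was 0.080 in this fit and 0.037 when each bright gene's own spread was used.

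The differences of the dim genes had both signs, and 4 of 7 were lower in null. RpS28a was lower by 0.31 (SE 0.16, limma unadjusted p = 0.0879), and its 4 null arrays overlapped with het 3 and het 4. Without het 2 the RpS28a difference was -0.17 and without het 2 and null 4 it was -0.19. RpS28-like differed by -0.11 with all arrays, by -0.01 without het 2, which was its highest array, and by 0.04 without het 2 and null 4. RpS19b differed by 0.09, 0.24 and 0.23 under the same choices. RpL22-like read 5.55, 5.59, 5.34 and 5.58 in null, against 5.12, 5.95, 4.95 and 5.08 in het, so that 3 het arrays lay below all null arrays and het 2 above them. Its difference was 0.24 (SE 0.22, limma unadjusted p = 0.302) with all arrays. Without het 2, the array lowest in Ote, it was 0.46 (limma unadjusted p = 0.0033, adjusted p = 0.969), and without both het 2 and null 4 it was 0.44 (limma unadjusted p = 0.0088, adjusted p = 0.932).

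Het 2 was also the array with the highest mean of the testis markers, 6.29, beside 5.09 to 5.74 in null and 5.31 to 5.79 in the other het arrays. These markers were higher in null for 1 of 7 genes. Het 2 had the lowest mean of the follicle cell markers too, 5.98, beside 6.46 to 8.52 in null and 7.24 to 8.85 in the other het arrays. The part of these markers in the RpL22-like values was not tested. RpL37-2 read 7.05, 6.81, 6.78 and 6.28 in null, against 6.52, 6.84, 6.66 and 6.21 in het, a difference of 0.17 (SE 0.20, limma unadjusted p = 0.404). The difference was 0.27 without het 2 (limma unadjusted p = 0.231). It was 0.42 (limma unadjusted p = 0.0364, adjusted p = 0.952) without het 2 and null 4, its highest het and its lowest null array.

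**Figure D2:**
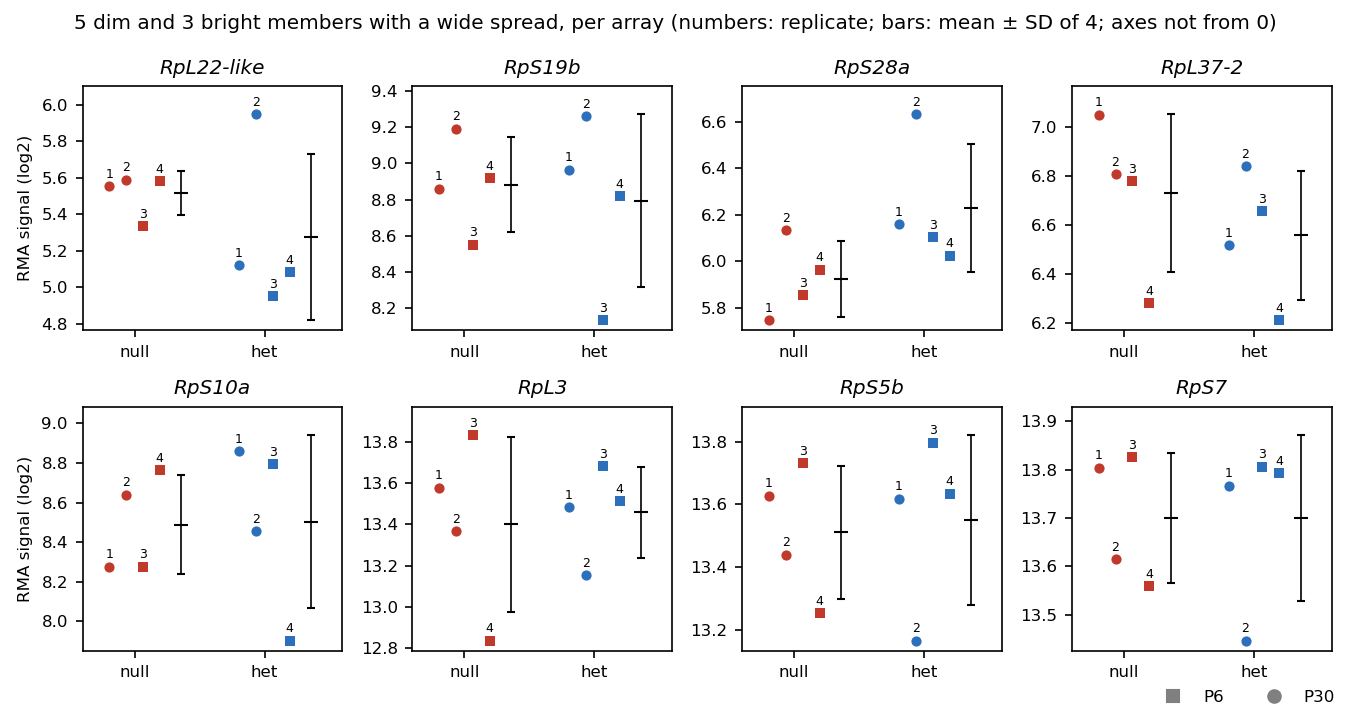
Log2 RMA signal (y axes, not from 0) of 8 genes in the null arrays (red, left) and het arrays (blue, right), numbered by replicate, with squares for P6 and circles for P30 and the mean ± SD of each label beside them. Het 2 stands above all null arrays for RpL22-like (5.95), and null 4 and het 2 are the lowest arrays for RpL3, RpS5b and RpS7.

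Within each chk2 background, null and het were compared with 2 arrays each and a spread shared by the 4 groups. In P6, 0 of 37 genes passed the thresholds of the study, beside 0.261% of all probe sets, and 0 an unadjusted p under 0.05, beside 1.66%. In P30 the counts were again 0 of 37, beside 0.245% and 1.54%. In both backgrounds 25 genes were lower in null and 12 higher, with medians of -0.020 in P6 and -0.029 in P30. Over all probe sets 48.1% were lower in null in P6 (median 0.009) and 57.3% in P30 (median -0.038). RpL22-like was higher in null by 0.44 in P6 and by 0.04 in P30, where het 2 belongs. RpL3 was at -0.26 in P6, where null 4 belongs, and at 0.15 in P30, and RpS5b at -0.22 and 0.14.

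The interaction, which tests whether the genotype difference itself differs between backgrounds, gave 0 of 37 genes at an adjusted p under 0.05, as over all probe sets (0%), and 0 at an unadjusted p under 0.05, beside 1.13%. The lowest unadjusted p of the 37 was 0.320. Leaving out 1 array brought up to 1 gene under 0.05 here: RpL3 without null 3 and RpL22-like without het 1. Such a fit leaves 1 of the 4 groups with 1 array, which is taken to vary like the others.

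Between P6 and P30 ovaries more probe sets of the array passed the thresholds than between null and het, but again no ribosomal protein gene. With the genotype label in the fit, 0 of 37 passed these thresholds, beside 1.64% of all probe sets. At an adjusted p under 0.05 there were 0 of 37 and 0% of all probe sets. At an unadjusted p under 0.05 there were 0 of 37, beside 9.74%. The lowest unadjusted p-values were 0.0516 (RpS19b) and 0.0571 (RpL29), and the adjusted ones were 0.513 to 0.989. As deposited 31 of the 37 were lower in P6 (17 after median centring, 8 after cyclic loess), 83.8% beside 54.9% of all probe sets, with a median of -0.059 beside -0.025.

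In the bright class 24 of 30 genes were lower in P6 as deposited, with a median of -0.043. The other probe sets with a mean of 12 or more were lower in 69.5%, with a median of -0.114. The differences ran from -0.19 (RpL29) to 0.14 (RpS5b). The unmoderated test put 12 of the 37 genes (32.4%) at an unadjusted p under 0.05, beside 8.06% of all probe sets and 17.5% of the other bright ones, and all 12 were lower in P6 as deposited, though after cyclic loess only RpL10Aa and RpL29 were. They were RpL10Aa of the dim class and RpL27, RpL29, RpL32, RpL37-1, RpL37A, RpL39, RpS20, RpS27A, RpS28b, RpS29 and RpS30 of the bright class. None of them passed after adjustment over all probe sets, the lowest adjusted p of that test being 0.588.

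The 4 P6 and 4 P30 arrays were apart, in either direction, in 5.75% of all probe sets and 13.2% of the other bright ones. They were apart in 5 of the 37 genes (13.5%), near the share of the other bright ones. All 5 were among the 30 bright genes, with P6 below P30 as deposited. RpL29, a large subunit protein, had the largest difference of these, with 13.36 and 13.28 in P6 null and 13.44 and 13.31 in P6 het, against 13.49 and 13.52 in P30 null and 13.57 and 13.55 in P30 het. RpS20 read 14.13 to 14.16 in P6, against 14.18 to 14.20 in P30. RpL39, which lines the tunnel through which the new protein leaves, read 13.94 to 13.98 in P6, against 13.99 to 14.08 in P30. RpL37-1 and RpL37A are small proteins of the large subunit that share a number but are no paralogs. RpL37-1 was at 13.78 to 13.91 in P6, against 13.93 to 13.98 in P30, and RpL37A at 13.75 to 13.88 in P6, against 13.89 to 13.92 in P30. After cyclic loess only RpL29 of the 5 was lower in P6 (-0.03). The P6 minus P30 differences of RpS20 (0.16), RpL39 (0.12), RpL37-1 (0.09) and RpL37A (0.10) were then above 0.

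The further probe sets of RpS29 and RpS30 also read lower in P6 as deposited. The dim one of RpS29 differed by -0.81 (limma unadjusted p = 0.0443, adjusted p = 0.512), with overlap between the backgrounds, and the second bright one by -0.10. The second one of RpS30 differed by -0.39 (limma unadjusted p = 0.0045, adjusted p = 0.512), with 10.37 to 10.63 in P6, against 10.81 to 10.96 in P30. Their brightest probe sets differed by only -0.10 and -0.07.

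**Figure D3:**
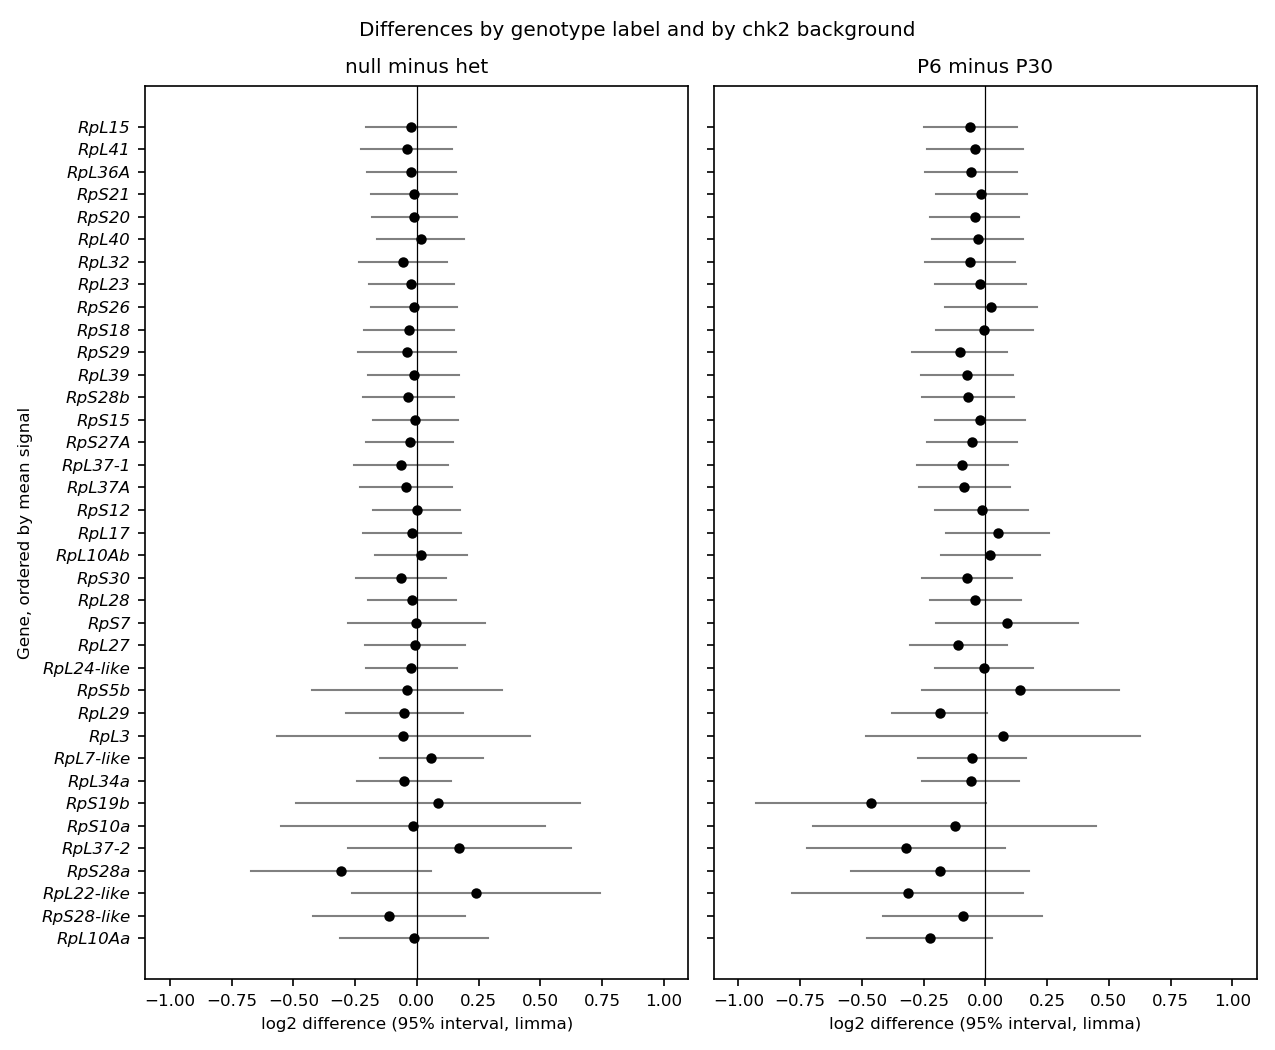
Log2 difference with its 95% interval (x axes, limma) for each of the 37 genes (y axis, ordered by mean signal), null minus het on the left and P6 minus P30 on the right. All intervals include 0, and the points farthest from it belong to dim genes at the bottom, with RpS28a at -0.31 in null minus het and RpS19b at -0.46 in P6 minus P30.

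The sign of the bright genes in this comparison depended on how the arrays were scaled to each other. As deposited 24 of 30 were lower in P6, after median centring 10 of 30 (median 0.018), and after cyclic loess, which fits the arrays to each other along the signal range, 1 of 30 (median 0.158). That 1 gene was RpL29, at -0.03. The median of all probe sets moved by at most 0.061 between scalings. No direction between P6 and P30 is therefore given for the bright class.

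The 7 dim genes were lower in P6 under all 3 scalings, with medians of -0.23 as deposited, -0.17 after median centring and -0.26 after cyclic loess. Of all probe sets, 54.9%, 42.9% and 50% were lower in P6 under these scalings. Median centring shifts every difference by the same 0.061, less than the smallest of the 7, so it could change no sign here. The 7 share the same 8 arrays, so their common sign is not evidence from 7 separate genes. RpS19b read 8.55 and 8.92 in P6 null and 8.13 and 8.82 in P6 het, against 8.86 and 9.19 in P30 null and 8.96 and 9.26 in P30 het. The difference was -0.46 (SE 0.20, exact two-sided permutation p = 0.0571), and null 4 of P6 lay above null 1 of P30. RpL37-2 differed by -0.32, RpL22-like by -0.32, RpL10Aa by -0.23, RpS28a by -0.18, RpS10a by -0.12 and RpS28-like by -0.09, and in each of these the backgrounds overlapped. Without het 2 and null 4 RpS28-like was at 0.09. The testis markers were lower in P6 for 6 of 7 genes, with list means of 5.09 to 5.79 in P6 and 5.48 to 6.29 in P30. The follicle cell markers were higher in P6 for 4 of 4, with means of 7.24 to 8.85 in P6 and 5.98 to 8.44 in P30, with an overlap between them. The salivary gland markers were lower in P6 for 6 of 6 genes (median -2.65), but of the P30 arrays only null 1 and het 1 were high. Their list means were 9.14 and 9.85. Those of null 2 (4.495) and het 2 (4.62) lay inside the P6 range of 4.28 to 5.55. The larval fat body markers were lower in P6 for 3 of 3 genes (-0.79) and the muscle markers for 3 of 3 (-0.79), with list means that overlapped. The part of these markers in the values of the paralogs was not tested.

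**Figure D4:**
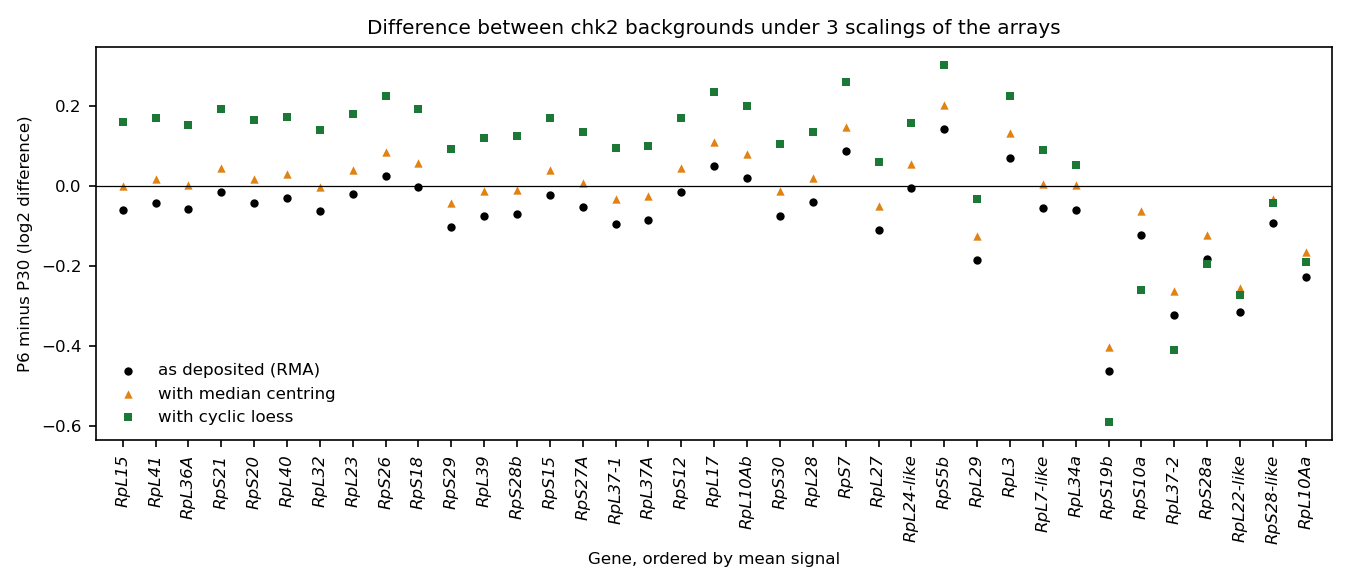
P6 minus P30 log2 difference (y axis) of each gene (x axis, ordered by mean signal) as deposited (black circles), after median centring (orange triangles) and after cyclic loess (green squares). The bright genes move across 0 with the scaling, with 24, 10 and 1 of 30 below it, while the 7 dim genes on the right stay below 0 in all 3.

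The genes lie on 5 chromosome arms, 14 on 3R, 8 each on 2L and 2R, 4 on 3L and 3 on X. The second chromosome carries the mutations and the balancer. The median null minus het difference was -0.017 on 2L, -0.017 on 2R, -0.010 on 3L, -0.031 on 3R and -0.034 on X, and those of the second chromosome lay within the range of the others.

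The other genes of protein synthesis were taken from lists of ribosomal proteins, translation factors, assembly factors and growth regulators. Of the ribosomal proteins outside the naming rule (RpLP0, RpLP1, RpLP2, Rack1 and RpLP0-like), 0 of 5 had an unadjusted p under 0.05 between null and het, and the median was -0.012. RpLP0-like, the counterpart of the yeast assembly factor Mrt4, read 12.51 and 12.83 in P6 null and 12.32 and 12.70 in P6 het, against 12.97 and 12.86 in P30 null and 12.93 and 12.95 in P30 het. Its P6 minus P30 difference was -0.33 (limma unadjusted p = 0.0351), short of a fold of 2. In this comparison 1 of the 5 had an unadjusted p under 0.05, beside 9.74% of all probe sets. Of 4 elongation factors, 3 were lower in null as deposited and 1 without het 2 and null 4, and none had an unadjusted p under 0.05.

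Of 23 initiation factors, 18 were lower in null and 5 higher as deposited (median -0.07), and 16 were lower under the other scalings. In P6 15 of the 23 were higher (median 0.12), and 16 to 17 under the other scalings. The lowest p was that of eIF4G2, a variant of the scaffold eIF4G with a role in the male germline, with 9.45, 8.32, 9.07 and 9.70 in null, against 9.83, 9.43, 10.12 and 10.16 in het (-0.75, SE 0.31, limma unadjusted p = 0.0422). Of the 23, 1 (eIF4G2) had an unadjusted p under 0.05 between null and het, beside 2.25% of all probe sets. Between the backgrounds 1 of 23 passed the thresholds of the study, beside 1.64% of all probe sets. This was eIF3a, a subunit of the factor that brings the small subunit to the message. It read 12.48 and 10.66 in P6 null and 12.22 and 11.43 in P6 het, against 10.89 and 9.98 in P30 null and 11.16 and 10.55 in P30 het (1.05, SE 0.44, limma unadjusted p = 0.0477), and null 4 of P6 lay below both null 1 and het 1 of P30.

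Ribosome assembly factors were lower in null for 16 of 17 genes under all 3 scalings (median -0.12 as deposited). Without het 2 and null 4 the count was 15. Of all probe sets, 51.8% were lower in null as deposited, 46.4% after median centring and 48.7% after cyclic loess. The 17 share the same 8 arrays, so their common sign is not evidence from 17 separate genes, and 0 of 17 had an unadjusted p under 0.05. The germline markers were lower in null for 7 of 7 genes (median -0.14), and their part in these values was not tested. In P6 12 of the 17 were higher as deposited (median 0.18) and 14 under the other scalings. Nopp140, a nucleolar chaperone, had the largest difference, -0.57 (SE 0.45), with 10.77, 9.85, 11.73 and 10.10 in null, against 11.42, 10.47, 11.77 and 11.07 in het. Of 8 genes of growth control and the response to loss of ribosomal proteins, 7 were lower in null as deposited (5 without het 2 and null 4) and 0 had an unadjusted p under 0.05. S6k, the kinase that phosphorylates the ribosomal protein S6, was nearest to it (-0.37, SE 0.18, limma unadjusted p = 0.0694), with 11.69, 11.38, 10.87 and 11.11 in null, against 11.71, 11.48, 11.65 and 11.69 in het. All adjusted p-values of these lists were above 0.05.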

How the data were processed

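Ovary RNA of 8 samples (4 null, 4 het) was amplified from 50 ng and measured on Affymetrix Drosophila 2.0 arrays, 1 per sample. The authors deposited log2 signals made with RMA (background correction, quantile normalization and summarizing the probes), which the submitters' notes place in Expression Console 1.4.1 of Affymetrix and the methods in another console. The log base and a detection call are not given in the sources used here. Of 18952 probe sets, 183 controls were left out and 18769 tested, with no filter on signal. The deposited annotation names 1 gene for 13647, several for 402 and none for 4720, and the brightest of a gene's probe sets by its mean over 8 arrays stood for it. Probe sets of the _s_at type (14 of the 37) can share probes with other transcripts.

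The comparisons used limma (version 3.58.1, R 4.3.3): null and het with no covariate, P6 and P30 with the genotype label in the fit, and the labels within each background and their interaction in a fit of 4 groups. P-values were adjusted by Benjamini-Hochberg over all 18769 probe sets. Calls used the thresholds of the study, 2-fold and p under 0.05 with no adjustment, and separately an adjusted p under 0.05. The unmoderated test is the same linear model without limma's shared variance (for null against het, the one-way ANOVA that the methods name). Gaps between paralogs were compared by an exact permutation test over 70 assignments of arrays. The only errors available are those between these samples, whose number limits the precision. The steps were checked on simulated data.

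Genes were named by role in the rule: paralog pairs, the brightest and dimmest 6, the largest differences, the largest and smallest SD, and, of other translation genes, those past a threshold or with the largest differences. RpS7, RpLP0, Rack1 and others tied to null 4 and het 2 were named after their values were seen. The genes and lists were chosen with earlier results of these data known. From the written lists bor, which is no assembly factor, and a second name of dj were removed. Same-numbered arrays deviated together with r of -0.002, 0.38, 0.54 and -0.10 for replicates 1 to 4 (over probe sets), so no pairing was used. Promoter motifs and protein identity had been planned and were not run, since no sequences were used here.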

Additional observations from a re-analysis of the deposited data

Results flagged for a closer look

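Of the 74 groups of 4 arrays examined (37 genes in null and in het), 6 held an array far from the other 3, by a gap that takes up most of the group's range (Dixon's criterion). Chance alone gives about 1 in 20 such groups. RpL22-like had 1 in each label: null 3 at 5.34, below the others at 5.55 to 5.59, and het 2 at 5.95, above the others at 4.95 to 5.12. RpS7 was at 13.45 in het 2, with the others at 13.77 to 13.81. RpL28, a large subunit protein, was at 13.76 in null 1, with the others at 13.71, and at 13.67 in het 4, with the others at 13.76 to 13.78. RpL36A was at 14.14 in null 3, with the others at 14.23 to 14.24. Het 2, with 2 of the 6, is the array whose Ote signal goes against its label.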

How the results depend on the processing

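The counts of genes past the thresholds of the study or an adjusted p under 0.05 stayed at 0 under all alternatives run, in every comparison. Counts at an unadjusted p under 0.05 did not. In the main fits 2.25% of all probe sets had such a p between null and het and 9.74% between P6 and P30. Apart from the unmoderated test, this share was not taken under the alternatives. Whether the counts below exceed it was therefore not tested. Between null and het the count of 0 became 1 with the replicate number as a block (RpS28a, limma unadjusted p = 0.0406), 3 with array weights (RpL22-like, RpL37-2 and RpS28a), 2 without het 2 and null 4 (RpL22-like and RpL37-2), and 0 to 1 when each array was left out (RpL22-like without het 2). The block changed no other call. Between P6 and P30 it became 12 with the unmoderated test, 2 with cyclic loess (RpL37-2 and RpS19b), 2 with trended and robust empirical Bayes (RpL10Aa and RpL29), 1 with array weights (RpS19b), 2 with the mean of a gene's probe sets (RpS29 and RpS30), 2 without the genotype term (RpL29 and RpS19b), and 0 to 2 when each array was left out (RpS19b without null 1, null 4 or het 4, RpL3 without null 4 and RpL37-2 without het 3). In fits without 1 array, added after the values were seen (as were the alternatives for the other translation lists), the count was 0 to 1 within P6 (RpL3 without null 3, RpL22-like without het 1 or het 2), 0 to 1 within P30 (RpS28a without het 1) and 0 to 1 for the interaction (RpL3 without null 3, RpL22-like without het 1). Scaling moved the directions. The count of genes lower in null was 31 as deposited and 19 after median centring. The count lower in P6 was 31 as deposited, 17 after median centring and 8 after cyclic loess, with medians of -0.059, 0.0019 and 0.135. The RpS28a minus RpS28b gap between null and het ranged from -0.33 to -0.14 when each array was left out, with an exact permutation p of 0.0286 without het 4. Of the single-gene differences, 53 alternative values moved by more than the spread between arrays and 1236 did not. Many of the 1236 could not move. The unmoderated test, the blocks and the trended fit leave a difference as it is. So do the fit without the genotype term and a filter on dim probe sets. The mean of a gene's probe sets changes nothing for genes with 1 probe set. The count of 1236 therefore does not show how stable the differences were. Changes of sign were counted only for genes with an unadjusted p under 0.05 in the main fits. As there were none, that count could not differ from 0 and shows nothing about the signs. A block by replicate number could not be fitted to P6 against P30, since the numbers lie within the backgrounds. The causes of these shifts were not tested, apart from what each setting leaves out or shares.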
